A study of Mus musculus with 7 samples.

Results

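The colon of mice killed 4 weeks after the last of 6 TNBS enemas was compared with the colon of saline controls. The saline controls were also given 6 enemas. The comparison rests on 2 of the 7 arrays of the series, the week 10 TNBS array and the later saline array, and these were taken by their group labels and not by any measured value. TNBS (trinitrobenzene sulphonic acid) is a hapten, a small molecule that binds tissue proteins and provokes an immune response against them. It was given in ethanol, and no group given ethanol alone is among the samples, so TNBS with ethanol was set against saline. All mice were female and of the outbred CD-1 stock, aged 10 to 12 weeks when the experiment began. The week 10 TNBS array measured RNA pooled from 5 mice. The later saline array measured RNA pooled from 4 mice, of which 2 were killed at week 8 and 2 at week 10. A second saline pool, of 5 mice killed at week 6, was measured on 2 arrays and is given beside the results as a further control. Its mice were killed 3 days after their last enema. Each group was a single pool, so no test between TNBS and saline was possible, the spread between mice is unknown, and no p-value is given.

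The mouse colon is lined by absorptive colonocytes and mucus-secreting goblet cells that are renewed from dividing cells in the crypts. Repeated TNBS injures this lining and draws in immune cells, and once the enemas end the lining can heal. Epithelial cells that meet bacteria or inflammatory cytokines secrete lectins of the Reg3 family. Interferon gamma, a product of T cells and natural killer cells, switches on guanylate-binding proteins and other GTPases that act against microbes inside cells. Mucosal mast cells, which live within and just below the epithelium, store their own set of chymases.

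Of 8251 genes on the array, 4316 had a signal of at least 100 in the highest pool, and these are the measured genes below. A gene could pass by the week 10 TNBS pool alone, as Plk4 and Hoxd11 did, both of them counted below as higher. Among the lists below, TGF-beta and BMP signalling, the cell cycle and cell junctions held 1 such gene each. Signals are intensities in the units of Affymetrix MAS5, scaled on every array to the same mean. Signals under 50 were set to a floor of 50 before taking log2, and where 1 pool was at the floor the fold is a lower bound, written "at least". A gene was called when the pools differed at least 2-fold, that is by 1 or more on the log2 scale. The median signal was 53.0 on the week 10 TNBS array and 58.1 on the later saline array, and 48.7% and 46.5% of probe sets lay under the floor. The 3' to 5' ratio of beta-actin, which follows RNA integrity and labelling, was 0.812 in the TNBS pool and 0.798 in later saline. On the week 6 saline arrays it was 1.14 and 1.24. In bulk tissue, fewer cells of a type and less RNA per cell cannot be told apart.

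The tissue carried the markers of colon. The 4 goblet cell markers (Tff3, Clca1, Fcgbp and Agr2) summed to 19934.4 units in TNBS colon and 23231.5 in later saline, and the 6 absorptive colonocyte markers to 10789.8 and 13325.4. The 5 smooth muscle markers summed to 11791.7 in the TNBS pool and 11326.7 in saline. The 3 T cell markers, the 3 neutrophil markers and the 4 skeletal muscle markers lay under the floor in both pools. Of the 3 small intestine markers, all were under the floor in the TNBS pool, and in saline only Fabp6 passed it, at 54.4.

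At week 10, 36 genes had a signal at least 2-fold above that of later saline, or 0.834% of the 4316 measured, and 28 genes were at least 2-fold lower, or 0.649%. The counts were close to or under those between the saline pools and above those between the repeated arrays. The later saline pool had 37 genes 2-fold higher (0.857%) and 41 lower (0.95%) than the week 6 saline pool. Here and below the week 6 saline pool is the mean of its 2 arrays, whereas TNBS and later saline were 1 array each. Averaging 2 arrays can make differences smaller, so these counts are not like for like. With only 1 of the week 6 arrays as the control, 49 or 55 genes were higher and 44 or 57 lower in later saline. The saline pools also differed in week of killing and in the beta-actin ratio given above, on which TNBS and later saline were close. The part of these differences in the counts was not tested. Both arrays of the week 6 saline pool, which carried the same RNA, gave 16 higher (0.371%) and 15 lower (0.348%). With equal array medians the TNBS pool had 65 genes higher and 17 lower than later saline. The later saline pool then had 42 higher and 32 lower than the mean of the week 6 arrays. The order of these counts thus depended on the scaling, and the counts with only 1 week 6 array were not made under this scaling. Across all genes the log2 difference had an SD of 0.38 between TNBS and later saline and 0.29 between the repeated arrays. Between the saline pools, with the week 6 arrays averaged, it was 0.37. The week 10 pool is therefore described below by single genes that stood far from all saline arrays and by groups of genes with related roles.

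The far end of the distribution held few genes. The TNBS pool had 4 genes at least 4-fold higher than later saline (0.0927%), namely Reg3b, Ubd, Mcpt1 and Mcpt2, and 0 genes at least 4-fold lower (0.0%). Between the saline pools there were 1 (0.0232%) and 3 (0.0695%) such genes, and between the repeated arrays 1 (0.0232%) and 0 (0.0%). Of the 36 genes called higher, 29 had a higher signal than every saline array, and 10 were at least 2-fold above every one of them (0.232% of measured genes). Of the 28 called lower, 24 lay below every saline array and 3 at least 2-fold below (0.0695%), which were Krt32, Pus1 and Wdfy2. Among all measured genes 30.3% lay above and 30.6% below all 3 saline arrays, but called genes were picked for their distance from one of these arrays, so nothing is read from that share. The calls were concentrated at low signal: of 917 genes with a mean signal of at least 500, 4 were called higher and 3 lower, or 0.763%. Of 625 genes with a mean signal under 100, 3.84% were called. Between the saline pools, 1.74% of the 917 bright genes differed at least 2-fold.

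**Figure D1:**
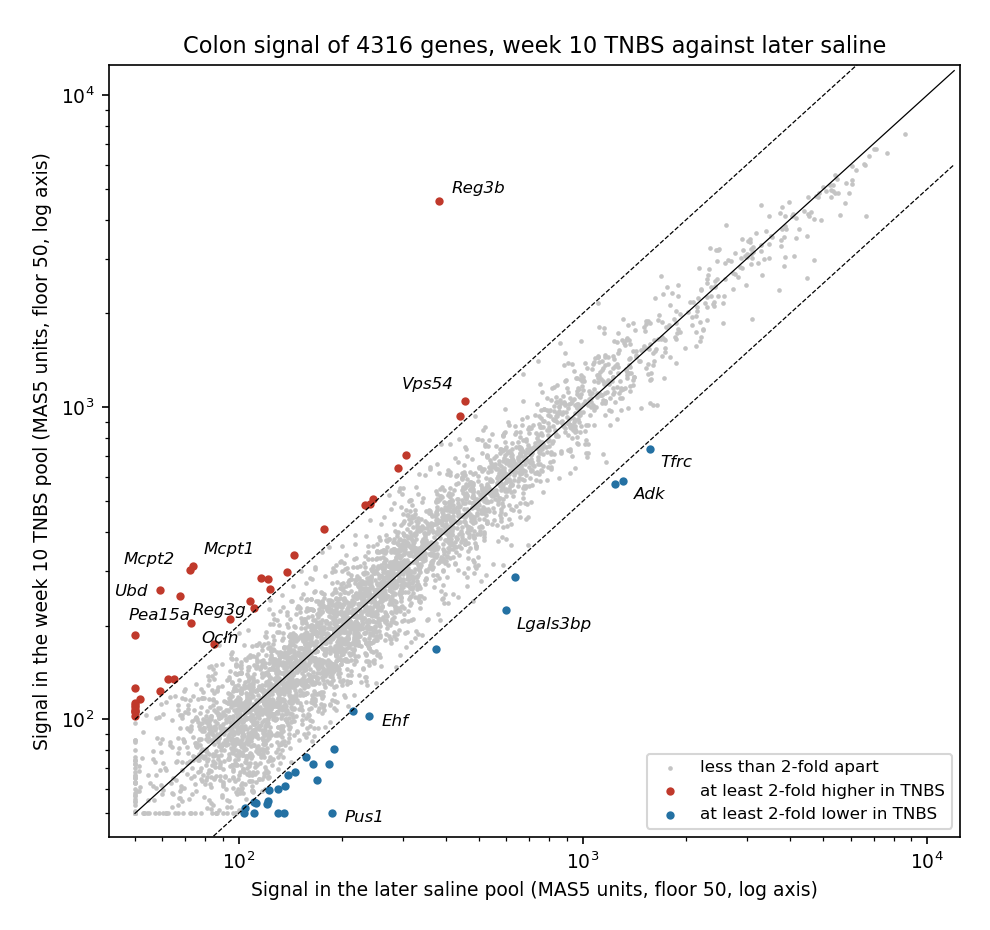
Signal of each of the 4316 measured genes in the week 10 TNBS pool (vertical, log axis) against the later saline pool (horizontal, log axis), both floored at 50, with 1 array a side. The solid line marks equal signal and the dashed lines a 2-fold difference; Reg3b stands alone at 4589 against 382, and the called genes crowd toward low signal.

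Reg3b was the gene with the largest difference at week 10. Reg3b encodes a secreted C-type lectin of the intestinal epithelium that binds bacteria. Its signal was 4589 in the week 10 TNBS pool, against 382 in the later saline pool and 162 and 170.4 on the week 6 saline arrays. The TNBS value lay far above all 3 saline arrays, and the log2 difference from later saline was 3.59, or 12.0-fold. A second probe set of the gene read 764 in the TNBS pool and 68.3 in later saline, a log2 difference of 3.48, so both probe sets gave the same size. Both carry the suffix by which Affymetrix marks probes that can match more than 1 transcript, and related Reg transcripts may add to them.

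Reg3g, a neighbouring gene whose lectin kills Gram-positive bacteria, read 249 in the TNBS pool, against 67.6 in later saline and 6.8 and 8.9 on the week 6 saline arrays. The log2 difference from later saline was 1.88. A second Reg3g probe set lay under the floor in both pools, at 38.7 and 1.9. Reg1, the regenerating lectin of the same family, did not stand apart: it read 80.5 in the TNBS pool and 78.1 in later saline, a log2 difference of 0.04. Reg family genes are also expressed in the pancreas, and the 4 pancreatic acinar markers summed to 533.0 in the TNBS pool, against 698.4 in later saline and 400.7 and 273.0 on the week 6 saline arrays, so the TNBS pool lay between the saline pools. The part of pancreatic RNA in the Reg signals was not tested.

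The regions just upstream of Reg3b and Reg3g are shown because both genes stood above every saline array. Each is the 150 bases before the RefSeq start (build GRCm38.p6), Reg3b at chr6:78370735-78370884 on the plus strand and Reg3g at chr6:78468875-78469024 on the minus strand. Capitals mark a match to TTCNNNGAA, the GAS element bound by STAT proteins, searched on both strands.
Reg3b: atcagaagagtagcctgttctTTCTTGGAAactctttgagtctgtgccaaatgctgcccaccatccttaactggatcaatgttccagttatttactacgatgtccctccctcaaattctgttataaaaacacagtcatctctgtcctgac
Reg3g: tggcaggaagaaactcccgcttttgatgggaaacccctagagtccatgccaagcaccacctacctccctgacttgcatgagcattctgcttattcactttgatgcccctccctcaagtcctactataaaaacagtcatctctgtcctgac
The match in Reg3b lies 129 to 121 bases before the start, and these letters are not in the Reg3g window. Of 32851 promoter windows of this length, 4.09% hold such a match. The windows share a run of 20 bases that ends at the start of each gene.

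Apart from Reg3b and Reg3g no measured gene of epithelial and mucosal defence was called. The list had 16 measured genes, of which 7 lay above and 9 below later saline, with a median log2 difference of -0.16 against 0.00 over all measured genes. Pla2g2a, a secreted phospholipase that attacks bacterial membranes, read 312 in the TNBS pool, against 587 in later saline and 454 and 330.3 on the week 6 saline arrays. Itln1, a goblet cell lectin that binds bacterial sugars, read 4119 in the TNBS pool and 6662 in later saline, and 9877 and 8861 on the week 6 arrays. Both genes were below every saline array, with log2 differences of -0.91 and -0.69 from later saline, short of 2-fold. Cd14, a co-receptor for bacterial lipopolysaccharide, went the other way, with 2639 in the TNBS pool and 1684 in later saline, a log2 difference of 0.65.

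The mucosal mast cell chymases formed the next group. Mcpt1, the chymase stored by mucosal mast cells, read 310.2 in the TNBS pool, against 73.9 in later saline and 133 and 160.1 on the week 6 saline arrays. Mcpt2, its neighbour with the same cell type, read 302 in the TNBS pool, against 72.2 in later saline and 63.9 and 102 on the week 6 arrays. The log2 differences from later saline were 2.07 and 2.06, and both genes were above every saline array. Cma2, a further chymase, read 209 in the TNBS pool and 94.6 in later saline, a log2 difference of 1.14, with 145 and 182 on the week 6 arrays, so its margin over the nearest saline array was small.

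Mast cell genes outside the chymases were not called. Kit, the stem cell factor receptor that mast cells and the pacemaker cells of the gut wall both carry, read 171 in the TNBS pool, against 159 in later saline and 227 and 203 on the week 6 arrays, a log2 difference of 0.11 from later saline. Tpsb2, a tryptase of connective tissue mast cells, read 91.0 in the TNBS pool and 148 in later saline, a log2 difference of -0.70. Cpa3, a mast cell carboxypeptidase, was under the floor in both pools, at 20.1 and 12.8. Of the 6 measured mast cell genes, the 3 chymases were called and none of the others was. The 5 mast cell markers summed to 894 units in the TNBS pool, against 466 in later saline and 499.8 and 601 on the week 6 saline arrays. The probe sets of Mcpt1 and Cma2 carry a suffix for shared sequence, so chymase transcripts may be split or shared among them, and a second Mcpt1 probe set read 56.9 in the TNBS pool and 6.2 in later saline.

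Most genes induced by interferon gamma lay higher in the TNBS pool, by small amounts apart from 3 of them. Of 17 measured genes, 12 lay above and 3 below later saline, with a median log2 difference of 0.34, and 3 were called higher and 0 lower. Over all measured genes 48.9% lay above later saline. Of the 17, 11 lay above all 3 saline arrays and 0 below all 3, against 30.3% and 30.6% of all measured genes. Against the week 6 saline pool the median was 0.82, and the later saline pool itself lay 0.28 above the week 6 saline pool. Ubd (also called FAT10), a ubiquitin-like modifier that sends proteins to the proteasome, read 260.1 in the TNBS pool, against 59.2 in later saline and 59.3 and 52.9 on the week 6 arrays. The log2 difference was 2.14, and the 3 saline arrays lay close together just over the floor.

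Iigp1, an interferon-inducible GTPase, read 336 in the TNBS pool, against 145 in later saline and 74.9 and 96.8 on the week 6 arrays, a log2 difference of 1.21 from later saline. Its second probe set read 112 in the TNBS pool and 36.6 in later saline, a log2 difference of at least 1.16. Socs1, the suppressor that shuts off JAK and STAT signalling, read 135 in the TNBS pool and 62.4 in later saline, a log2 difference of 1.11, with 94.3 and 73.0 on the week 6 arrays. The guanylate-binding proteins Gbp3 and Gbp2 lay above every saline array without being called. Gbp3 read 386 in the TNBS pool and 235 in later saline, and Gbp2 read 670.2 and 433, log2 differences of 0.72 and 0.63. Irf1, the transcription factor that carries the interferon gamma signal, read 831 in the TNBS pool and 729, a log2 difference of 0.19, and Irgm1, Irgm2 and Igtp, GTPases of the Iigp1 family, lay between -0.06 and 0.15. The T cell markers were under the floor in both pools, and Cxcl9, a T cell attractant, was at 43.4 in the TNBS pool and 26.5 in later saline.

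Against later saline, genes of the type I interferon response did not share this pattern. Of 17 measured genes, 7 lay above and 10 below later saline, with a median of -0.17. Of the 17, 6 lay above and 2 below all 3 saline arrays, against 30.3% and 30.6% of all measured genes. Called lower was 1 gene. Lgals3bp, a secreted glycoprotein that binds galectins and is induced by interferon, read 224 in the TNBS pool, against 598 in later saline and 356 and 325 on the week 6 arrays, a log2 difference of -1.42. Its TNBS value was below every saline array. Isg15, a ubiquitin-like modifier, read 445 in the TNBS pool, against 695 in later saline and 193 and 176 on the week 6 arrays. Usp18, which removes Isg15 from proteins, read 73.1 in the TNBS pool, 142 in later saline and 12.6 and 8.8 on the week 6 arrays. Rsad2 (viperin), an antiviral enzyme, read 93.6 in the TNBS pool, 170.1 in later saline and 45.9 and 46.4 on the week 6 arrays.

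For Isg15, Usp18 and Rsad2 the TNBS pool thus lay between the saline pools: the log2 differences from later saline were -0.64, -0.96 and -0.86, while both week 6 saline arrays were lower still. The median of the type I list was 0.58 against the week 6 saline pool, and the later saline pool lay 0.81 above the week 6 saline pool. Ifit1, an RNA-binding antiviral protein, had the largest upward difference between the saline pools, at 2.36. The direction of this list at week 10 thus depended on which saline pool was used.

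The upstream regions of 4 interferon genes are shown because they hold a response element and the genes carry both patterns. Of the interferon genes searched, Gbp3 also holds a match, and these letters are not in the windows of Ubd and Lgals3bp. Each is the 150 bases before the RefSeq start (GRCm38.p6): Socs1 at chr16:10785537-10785686 on the minus strand, Gbp2 at chr3:142620513-142620662 on the plus strand, Isg15 at chr4:156200819-156200968 on the minus strand and Rsad2 at chr12:26456453-26456602 on the minus strand. Capitals mark matches to the core of the interferon-stimulated response element, spelled GAAA, then any 2 bases, then GAAA, on either strand, and overlapping matches run together.
Socs1: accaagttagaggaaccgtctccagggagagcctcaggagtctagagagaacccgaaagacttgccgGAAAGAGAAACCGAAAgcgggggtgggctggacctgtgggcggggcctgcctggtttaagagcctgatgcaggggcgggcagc
Gbp2: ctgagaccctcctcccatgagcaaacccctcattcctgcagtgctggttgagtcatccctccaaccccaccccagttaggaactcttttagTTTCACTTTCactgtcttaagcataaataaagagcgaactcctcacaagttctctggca
Isg15: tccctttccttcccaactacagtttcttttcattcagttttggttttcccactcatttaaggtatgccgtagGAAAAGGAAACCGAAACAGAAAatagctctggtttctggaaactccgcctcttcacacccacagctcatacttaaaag
Rsad2: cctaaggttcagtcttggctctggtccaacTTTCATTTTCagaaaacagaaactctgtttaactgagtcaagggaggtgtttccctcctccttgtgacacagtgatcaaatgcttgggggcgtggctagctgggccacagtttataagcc
Socs1 and Gbp2 were higher, and Isg15 and Rsad2 lower, than in later saline, so genes with this element lay on both sides. Socs1 holds 2 overlapping matches, Isg15 holds 3, and in Gbp2 and Rsad2 the match is on the opposite strand. Of 32851 windows of this length, 1.59% hold the element.

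**Figure D2:**
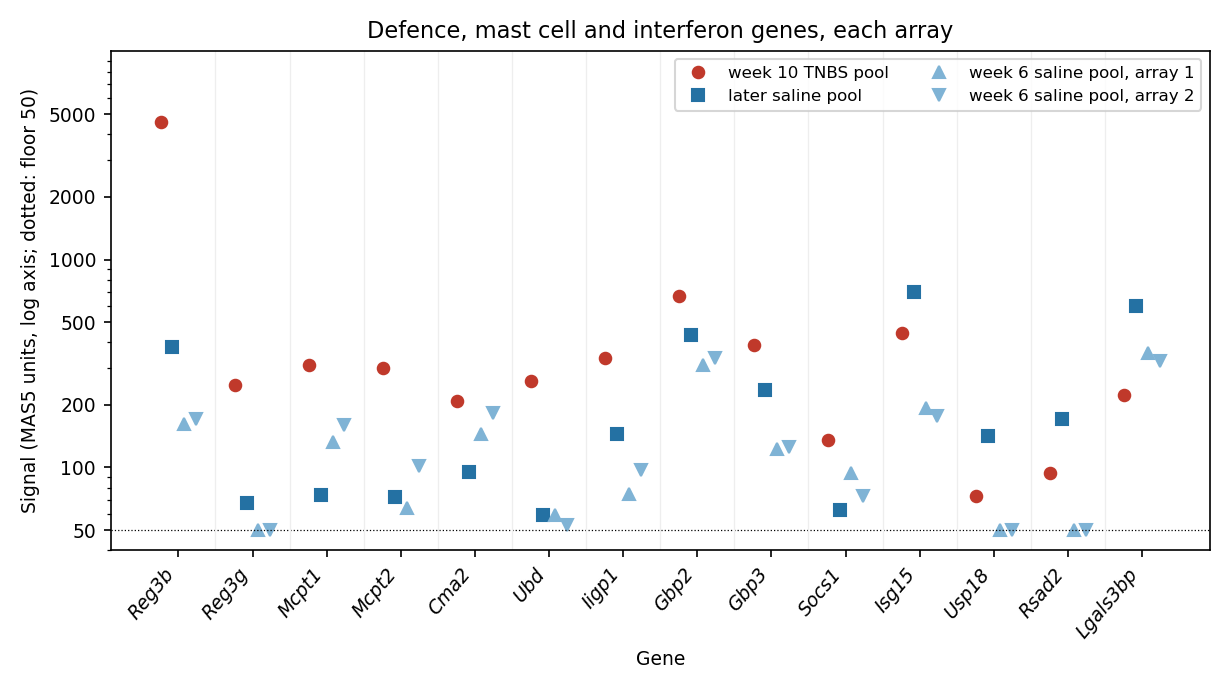
Signal (log axis, floor 50) of 14 defence, mast cell and interferon genes in the week 10 TNBS pool (red circle), the later saline pool (blue square) and both arrays of the week 6 saline pool (light triangles), 1 point an array. Reg3b, Reg3g, Mcpt1, Mcpt2, Ubd and Iigp1 are highest in the TNBS pool, whereas Isg15, Usp18 and Rsad2 are highest in the later saline pool and Lgals3bp is lowest in the TNBS pool.

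Other immune genes showed small shifts. Of 10 measured genes of complement and the acute phase, 8 lay above later saline with a median of 0.26, and 0 were called. C1qc, a chain of the first complement component, read 334 in the TNBS pool and 233 in later saline, but 436 and 317 on the week 6 arrays, and against the week 6 saline pool the list median was -0.17, the opposite sign. Among 11 MHC class II genes the median was 0.21. Cd74, the invariant chain, read 3245 in the TNBS pool and 2342 in later saline, and 2866 and 2692 on the week 6 arrays, and H2-Ab1 read 443 and 318, and 356 and 311. Both were above every saline array, with log2 differences of 0.47 and 0.48.

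Among 18 macrophage and monocyte genes 12 lay above later saline, with a median of 0.18. Against the week 6 saline pool their median was -0.01. Of the 18 genes, 1 was called. That gene was Cd53, a tetraspanin of white blood cells, which read 240.5 in the TNBS pool, against 108 in later saline and 153 and 78.5 on the week 6 arrays. Laptm5, a lysosomal protein of blood cells, read 504 in the TNBS pool and 316 in later saline, a log2 difference of 0.68, but its second probe set read 170.4 and 284, a log2 difference of -0.74. Among 10 chemokine genes 7 lay above later saline, with a median of 0.20. The chemokine median was 0.08 against the week 6 saline pool and 0.01 with a floor of 100. Ccl8, a monocyte attractant, read 135 in the TNBS pool, 84.8 in later saline and 69.3 and 49.2 on the week 6 arrays. The neutrophil list had a median of 0.00, with 4 of its 9 genes at the floor in both pools.

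The immunoglobulin segments lay on both sides, with 11 of 21 above and 10 below later saline. Igkv1-133 read 485 in the TNBS pool and 232 in later saline, yet 537 and 560 on the week 6 arrays, so it was called against one saline pool and lay below the other. Igkv15-103 was called lower, with 80.3 in the TNBS pool and 189 in later saline. Probe sets of such segments share sequence with each other. The probe set used for Ighm, an immunoglobulin heavy chain gene, gave a log2 difference of -0.03. A further Ighm probe set, picked out after its value was seen, read 328 in the TNBS pool and 5.3 in later saline. Its log2 difference was at least 2.71, and no other Ighm probe set was past 2-fold. Jchain, which joins secreted IgA in plasma cells, read 1396 in the TNBS pool, against 1080.5 in later saline and 1318 and 1455 on the week 6 arrays.

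In the epithelium, genes of absorptive colonocytes were slightly lower in the TNBS pool than in later saline. Of 27 measured genes, 24 lay below later saline and 3 above, with a median of -0.22, and 0 were called at 2-fold. The median was -0.08 with equal array medians, a scaling that moved the median of all genes up by 0.13, and -0.08 against the week 6 saline pool. Mep1a, a brush border protease, read 114 in the TNBS pool, against 194 in later saline and 169.7 and 225 on the week 6 arrays. Ezr (ezrin), which ties the brush border to actin, read 695 in the TNBS pool and 1025 in later saline, and 719 and 819 on the week 6 arrays. Guca2b (uroguanylin), a hormone of salt secretion, read 128 in the TNBS pool and 192 in later saline. All of these were below every saline array, by log2 differences from later saline of -0.77, -0.56 and -0.59. Of the 27 genes, 12 lay below and 2 above all 3 saline arrays, against 30.6% and 30.3% of all measured genes. The 6 markers of this cell type summed to 10789.8 in the TNBS pool, which was above the sums of 8834.4 and 8473.6 on the week 6 saline arrays.

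Genes of the secretory lineages also lay mostly below later saline. Of 20 goblet cell genes, 14 lay below and 5 above later saline. Their median was -0.15 against later saline and -0.33 against the week 6 saline pool. With equal array medians the median against later saline was -0.02. Fcgbp, a mucus protein, read 4002 in the TNBS pool and 4709 in later saline, but 10519 on the first week 6 array, and its second probe set had the opposite sign, with 3548 in the TNBS pool and 3021 in later saline. Ern2, an endoplasmic reticulum stress sensor of goblet cells, read 108 in the TNBS pool, 160.1 in later saline and 249 and 247 on the week 6 arrays. All 5 measured enteroendocrine genes lay below later saline, with a median of -0.29. Chga (chromogranin A) read 91.8 in the TNBS pool and 134.5 in later saline, and Sct (secretin) 467 and 652. None of these reached 2-fold.

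Cell contact genes lay on both sides, in part past 2-fold. Ocln (occludin), a membrane protein of tight junctions, read 204 in the TNBS pool, against 72.7 in later saline and 131 and 129.9 on the week 6 arrays. The log2 difference was 1.49 from later saline, and the TNBS value was above every saline array, although the saline pools themselves differed. Jup (plakoglobin) read 610.4 in the TNBS pool and 333 in later saline, and 512 and 368 on the week 6 arrays, a log2 difference of 0.87. Cdh1 (E-cadherin), the main adhesion protein of epithelia, read 90.1 in the TNBS pool, 155 in later saline and 188 and 216 on the week 6 arrays, a log2 difference of -0.78. Over the 29 measured junction genes 17 lay above and 12 below, with a median of 0.06.

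Among 29 epithelial transcription factors 1 was called. Ehf, an ETS factor of epithelial cells, read 103 in the TNBS pool, against 239.9 in later saline and 164 and 168 on the week 6 arrays, a log2 difference of -1.22. Nr1h4 (FXR), the bile acid receptor, read 343 in the TNBS pool, against 174.5 in later saline and 247 and 148 on the week 6 arrays. Cebpa and Cebpb, factors of the C/EBP family, read 791 and 164 in the TNBS pool and 438 and 95.7 in later saline. These were above every saline array, with log2 differences from later saline of 0.98, 0.85 and 0.78.

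Most genes of the cell cycle and DNA replication lay slightly lower in the TNBS pool. Of 46 measured genes, 33 lay below and 12 above later saline, with a median of -0.24 against 0.00 over all measured genes. The median was -0.11 against the week 6 saline pool and -0.10 with equal array medians. At 1.5-fold, 5 of the 46 were lower and 0 higher, where 6.28% of all measured genes were lower and 4.89% higher. Ccnd2 (cyclin D2), which starts the cycle, read 61.3 in the TNBS pool, against 136 in later saline and 163 and 103.5 on the week 6 arrays, a log2 difference of -1.15. Mcm5, a part of the replicative helicase, read 171 in the TNBS pool, 307 in later saline and 284 and 303 on the week 6 arrays. Ccne1 (cyclin E1) read 66.1 in the TNBS pool and 118 in later saline, Birc5 (survivin) 77.7 and 132, and Tk1 (thymidine kinase) 112 and 184. These 5 genes were below every saline array, and 22 of the 46 were, against 30.6% of all measured genes.

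Genes of the Wnt and Notch pathways and of crypt stem cells had a median of -0.15 over 16 genes, with 12 below later saline. The median was -0.01 with equal array medians and 0.03 against the week 6 saline pool. Frat2, which keeps beta-catenin from being degraded, was the member called: it read 639.6 in the TNBS pool, against 290.0 in later saline and 310 and 359 on the week 6 arrays, a log2 difference of 1.14. A second Frat2 probe set read 57.0 in the TNBS pool and 53.8 in later saline. Ctnnb1 (beta-catenin) itself read 1389 in the TNBS pool and 1862 in later saline, and 1476 and 1490 on the week 6 arrays, a log2 difference of -0.42.

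Chaperones of the endoplasmic reticulum included several low genes beside high ones. Hspa5 (BiP), the main chaperone of this compartment, read 1014.5 in the TNBS pool, against 1647 in later saline and 1509 and 1574 on the week 6 arrays. Creld2, a protein secreted under endoplasmic reticulum stress, read 106 in the TNBS pool, 170.3 in later saline and 244.5 and 232 on the week 6 arrays. Both lay below every saline array, by log2 differences of -0.70 and -0.68 from later saline. Tram1, a part of the protein import channel, was the reverse, with 1613 in the TNBS pool and 860.2 in later saline and 871 and 676 on the week 6 arrays. A second Tram1 probe set gave a log2 difference of 0.21, against 0.91 for the first. Over the 37 measured genes 18 lay above and 19 below later saline.

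The heat shock and Dnaj list had 52 measured genes, of which 31 lay below and 21 above later saline. Its median of -0.11 became 0.02 with equal array medians. Stip1, which links Hsp70 to Hsp90, was called lower, with 54.5 in the TNBS pool, 111 in later saline and 95.8 and 87.3 on the week 6 arrays. Immediate early genes went both ways. Fosb read 59.9 in the TNBS pool and 131 in later saline, Jund read 2602 and 4496, and Junb read 444 and 264, log2 differences of -1.12, -0.79 and 0.75. The proteasome list was split, with 18 of 37 genes above and 19 below later saline. Psmb9, the immunoproteasome subunit that interferon gamma induces, read 383 in the TNBS pool, against 256 in later saline and 242 and 189.9 on the week 6 arrays, and was above every saline array.

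Metabolic gene lists held no member called at 2-fold apart from Apob. Of 52 drug and xenobiotic metabolism genes, 35 lay below and 16 above later saline, with a median of -0.16 against later saline and 0.02 against the week 6 saline pool. Cyp2e1, an ethanol-metabolising cytochrome P450, read 65.5 in the TNBS pool, 123 in later saline and 141 and 121 on the week 6 arrays. Gstm2, a glutathione transferase, read 208 in the TNBS pool, 385 in later saline and 262 and 291 on the week 6 arrays, but its second probe set had the opposite sign, with 125 in the TNBS pool and 106 in later saline. The 61 genes of the respiratory chain and ATP synthase had a median of -0.05 against later saline and 0.15 against the week 6 saline pool, and 20 genes of fatty acid oxidation had medians of 0.04 and 0.36.

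Among lipid genes, Plin2, which coats lipid droplets, read 765 in the TNBS pool, against 386 in later saline and 618.5 and 521 on the week 6 arrays. Scd1, which desaturates fatty acids, read 939.8 in the TNBS pool, 486 in later saline and 413 and 367 on the week 6 arrays, but a second Scd1 probe set gave a log2 difference of 0.20, against 0.95 for the first. Lep (leptin), a hormone of fat cells, read 186 in the TNBS pool and 341 in later saline. Adipoq, the adipocyte marker on the array, read 130.4 in the TNBS pool, 134.5 in later saline and 45.3 on the first week 6 array. Apob, which carries lipid out of enterocytes, read 54.6 in the TNBS pool and 122 in later saline, and 81.8 and 54.5 on the week 6 arrays, so its low value in the TNBS pool matched the lowest saline array. Fdft1, an enzyme of cholesterol synthesis, read 645 in the TNBS pool and 359.8 in later saline, while the 14 genes of that pathway had a median of -0.19.

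Matrix and muscle genes were near their saline level. Among 37 collagens and structural matrix genes 22 lay above and 15 below later saline, with a median of 0.04 against later saline and -0.22 against the week 6 saline pool, and 0 were called. Mgp, which keeps soft tissue from calcifying, read 250.4 in the TNBS pool, against 133 in later saline and 197 and 198 on the week 6 arrays. Bgn (biglycan), a matrix proteoglycan, read 614 in the TNBS pool and 403 in later saline, but 693 and 797 on the week 6 arrays, and its second probe set gave a log2 difference of -0.12. The 16 smooth muscle genes had a median of 0.01. Acta2, smooth muscle actin, read 1588 in the TNBS pool and 1323 in later saline, and 2346 and 1827 on the week 6 arrays.

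Of 23 genes of TGF-beta and BMP signalling, 17 lay above later saline, with a median of 0.22, which was 0.04 against the week 6 saline pool. Smad4, the shared partner of the receptor-activated Smads, read 764 in the TNBS pool, against 412 in later saline and 465.5 and 515 on the week 6 arrays. Bmpr1a, a BMP receptor, read 107 in the TNBS pool and 66.5 in later saline, and 51.0 and 40.5 on the week 6 arrays. Both were above every saline array, by log2 differences of 0.89 and 0.69 from later saline. Igfbp4, which binds insulin-like growth factors, read 281.5 in the TNBS pool, against 122 in later saline and 229 and 174 on the week 6 arrays, and of its 2 other probe sets 1 was at the floor and 1 gave a log2 difference of -0.25.

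Mmp12, the elastase of macrophages, read 108 in the TNBS pool and was under the floor in later saline, at 30.5, so it was at least 2.15-fold higher. Timp1, an inhibitor of matrix proteases, read 40.9 in the TNBS pool, under the floor, and 136 in later saline. Both arrays of the week 6 saline pool, with the same RNA, read 69.8 and 286.5 for Timp1, a log2 gap of 2.04 that is wider than its difference between TNBS and later saline of at least -1.44. The second probe sets of Mmp12 and Timp1 were at the floor in both pools.

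**Figure D3:**
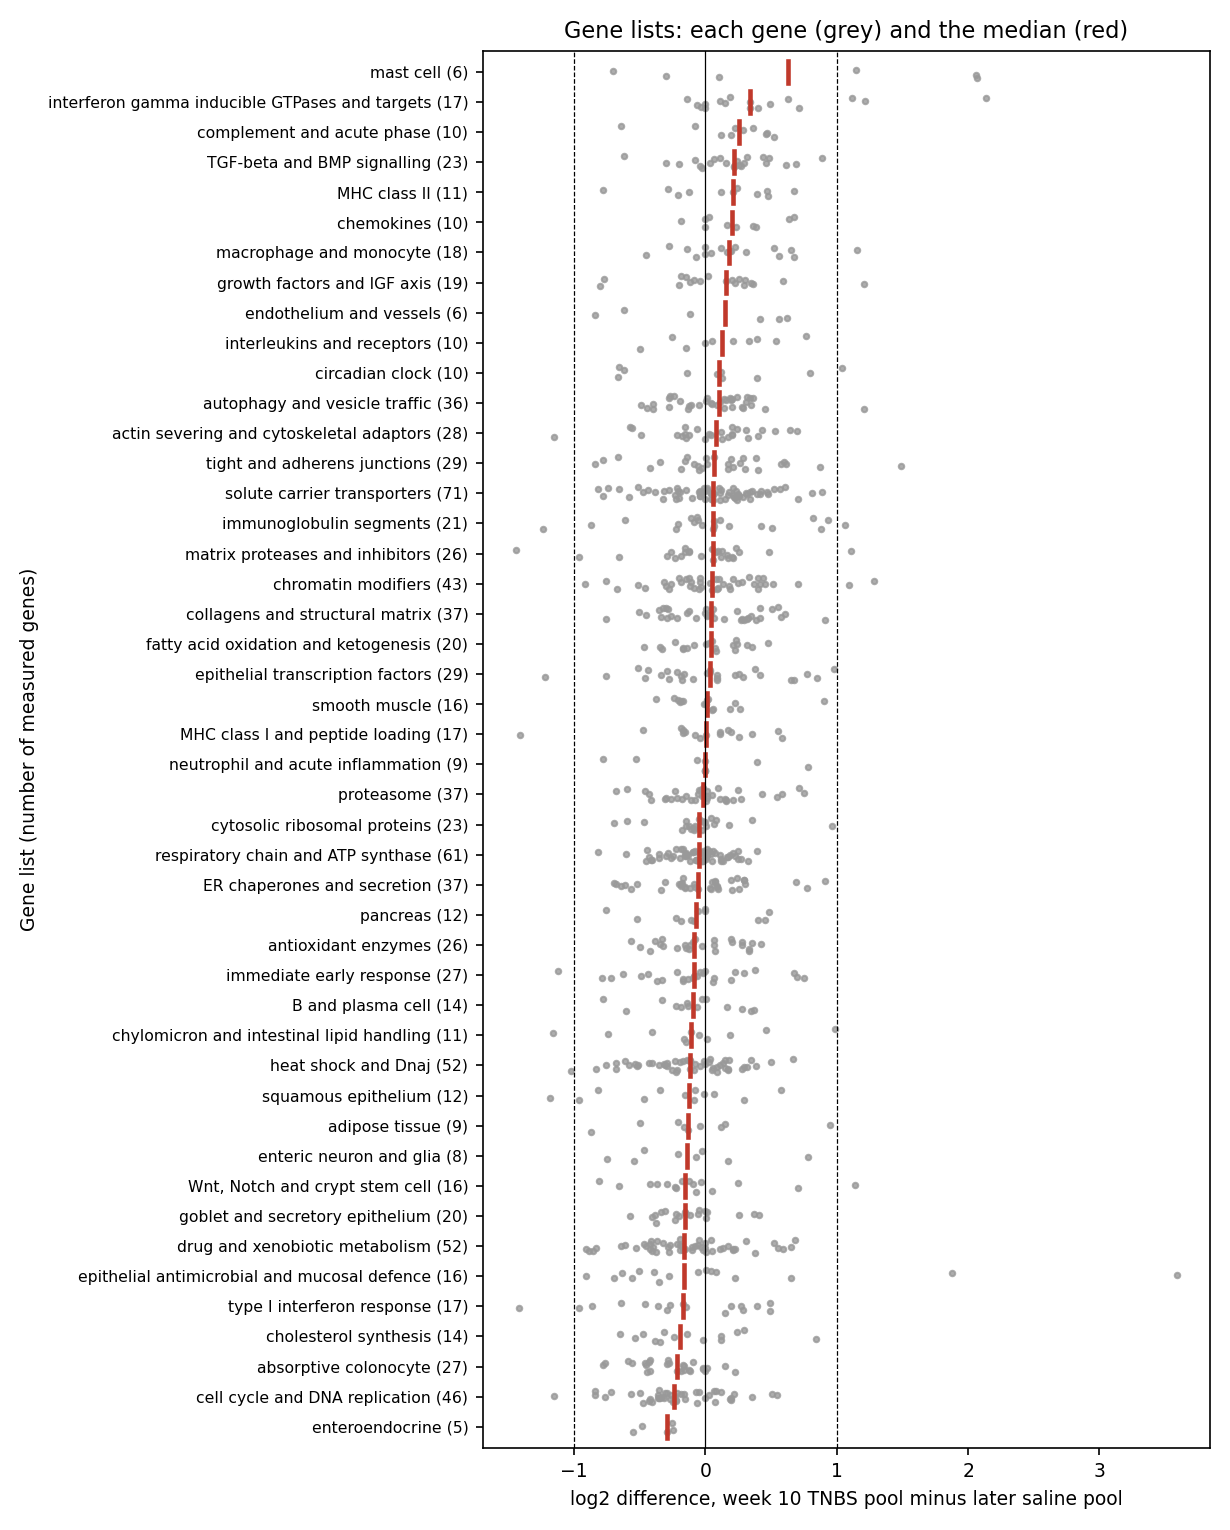
Log2 difference between the week 10 TNBS pool and the later saline pool for each measured gene (grey) of the 46 lists with at least 5 measured genes, with the list median (red bar) and dashed lines at 2-fold. Medians run from 0.63 for mast cell genes and 0.34 for interferon gamma targets to -0.24 for the cell cycle and -0.29 for enteroendocrine genes, and all other medians lie between -0.22 and 0.26.

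Circadian clock genes lay on both sides of saline at week 10. The clock is a loop in which Clock and Arntl (Bmal1) drive the Per, Cry and Nr1d genes, whose proteins then act against it, and levels of its transcripts change through the day. Nr1d1 (Rev-erb alpha), a repressor of Arntl, read 227.5 in the TNBS pool, against 111 in later saline and 184 and 151.5 on the week 6 arrays, and was called, at 2.06-fold. Nr1d2 (Rev-erb beta) read 273 in the TNBS pool, 157 in later saline and 121 and 102 on the week 6 arrays, a log2 difference of 0.80. Arntl, which the Rev-erb proteins repress, read 96.5 in the TNBS pool, 153 in later saline and 115 and 175 on the week 6 arrays, a log2 difference of -0.66.

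Cry1, a repressor of the clock, read 185 in the TNBS pool, 284 in later saline and 198 and 247.5 on the week 6 arrays, a log2 difference of -0.62. Both Nr1d genes were thus above every saline array, and Arntl and Cry1 below every one, though Arntl and Cry1 were not past 2-fold. Of the 10 measured clock genes 4 lay above and 3 below all 3 saline arrays, near the 30.3% and 30.6% of all measured genes. Usp2, a clock-controlled protease, read 109 in the TNBS pool and 172 in later saline, but 62.3 and 103 on the week 6 arrays, so it lay between the saline pools. Of the 10 measured clock genes, the remaining 5 (Bhlhe40, Tef, Csnk1d, Per3 and Clock) lay between -0.14 and 0.39. The time of day at which mice were killed is not given in the sources used here, and its part in these values was not tested.

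**Figure D4:**
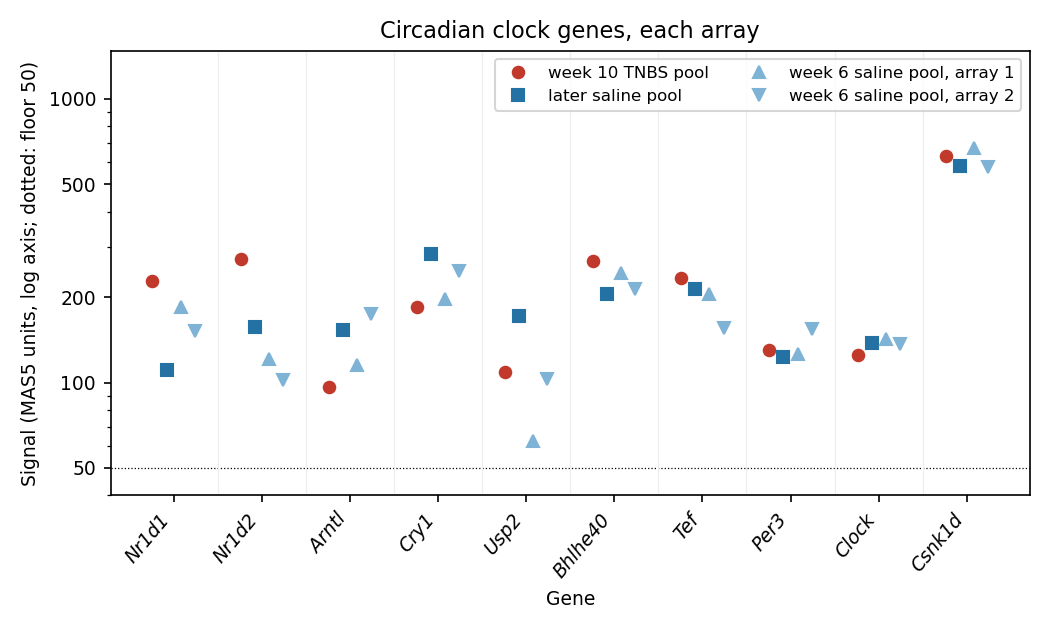
Signal (log axis, floor 50) of the 10 measured circadian clock genes in the week 10 TNBS pool (red circle), the later saline pool (blue square) and both arrays of the week 6 saline pool (light triangles), 1 point an array. Nr1d1 and Nr1d2 are highest, and Arntl and Cry1 lowest, in the TNBS pool.

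Clock and Arntl bind the E-box CACGTG, and the upstream regions of Nr1d1, Nr1d2, Arntl, Cry1 and Usp2 were searched for it. The region of Cry1 is shown because it was the 1 with a match; these letters are not in the windows of the other 4 genes. The 150 bases before its RefSeq start (GRCm38.p6) lie at chr10:85185055-85185204 on the minus strand, and capitals mark the E-box, which reads the same on both strands.
Cry1: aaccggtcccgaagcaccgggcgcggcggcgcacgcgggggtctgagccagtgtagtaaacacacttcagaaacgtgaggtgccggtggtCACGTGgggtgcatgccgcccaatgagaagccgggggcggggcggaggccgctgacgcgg
The E-box of Cry1 lies 60 to 55 bases before the start, and 4.3% of the 32851 windows hold one.

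Several called genes belong to none of the groups above or to groups whose median was near 0. Vps54, a tether for vesicles returning to the Golgi, read 1045 in the TNBS pool, against 454 in later saline and 261 and 242 on the week 6 arrays, a log2 difference of 1.20. Lclat1, which remodels cardiolipin, read 407 in the TNBS pool, 177 in later saline and 195 and 172 on the week 6 arrays, a log2 difference of 1.20. Sinhcaf and Hdac2, both parts of the Sin3 histone deacetylase complex, read 283 and 262.5 in the TNBS pool and 116.5 and 123 in later saline, log2 differences of 1.28 and 1.09. These 4 genes lay above every saline array, and the 43 measured chromatin modifiers as a whole had a median of 0.05.

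Wars, a tryptophan tRNA synthetase that interferon gamma induces, read 702 in the TNBS pool, against 307 in later saline and 539 and 473 on the week 6 arrays. Its 2 other probe sets gave log2 differences of 0.47 and 0.16, against 1.19 for the first. Arih1, a ubiquitin ligase, read 939.6 in the TNBS pool and 441 in later saline, and 522 and 193.5 on the week 6 arrays, while its second probe set gave a log2 difference of -0.45. Strap, an adaptor in RNA processing and TGF-beta signalling, read 298 in the TNBS pool, against 138 in later saline and 181 and 111 on the week 6 arrays. Hcn3, a pacemaker channel, read 117 in the TNBS pool and 51.6 in later saline, but 111 and 94.4 on the week 6 arrays, so the later saline pool was the array that stood apart.

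Among genes called lower, 3 were bright in later saline. Adk (adenosine kinase), which clears adenosine, read 582 in the TNBS pool, against 1313 in later saline and 738.5 and 807 on the week 6 arrays, a log2 difference of -1.17, and its 2 other probe sets were at the floor. Tfrc, the transferrin receptor that brings iron into dividing cells, read 738 in the TNBS pool, 1563 in later saline and 1375 and 1170.5 on the week 6 arrays. Both Tfrc probe sets were lower, at log2 differences of -1.08 and -0.79. Xist, the RNA that silences one X chromosome in female cells, read 569.5 in the TNBS pool and 1244 in later saline, but 479.7 and 454 on the week 6 arrays, so the TNBS pool lay near the week 6 saline pool.

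Adk and Tfrc were below every saline array, while Xist was lower only against the later saline pool. Fahd1, a mitochondrial decarboxylase, read 287 in the TNBS pool, 634 in later saline and 564 and 508 on the week 6 arrays. Dbnl, an actin-binding adaptor, read 168 in the TNBS pool, 375 in later saline and 190.3 and 279 on the week 6 arrays. Wdfy2, an endosomal protein, read 71.9 in the TNBS pool, 164 in later saline and 152 and 182 on the week 6 arrays. Krt32, a hair keratin, read 53.4 in the TNBS pool, 121 in later saline and 165.5 and 125 on the week 6 arrays. Of these, Wdfy2 and Krt32 were at least 2-fold below every saline array. The second probe sets of both genes were under the floor in both pools. Each of these calls held under 3 of the 6 settings of floor, scaling and probe set tried.

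Fosb, Ccnd2, Krt32, Apob and Tyms-ps had TNBS signals just over the floor, and genes of low signal were also those on which the repeated arrays differed most. H2-M9, an MHC class I gene, read 63.8 in the TNBS pool and 169 in later saline, and Nsmf, a synaptic signalling protein, read 72.0 and 183, log2 differences of -1.41 and -1.34. A second Nsmf probe set was at the floor.

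For 14 called genes 1 pool was at the floor, and the difference is a bound. Pea15a, which holds ERK in the cytoplasm, read 186 in the TNBS pool and was under the floor in later saline, at least 3.73-fold higher, with 91.2 and 17.7 on the week 6 arrays. Pus1, a tRNA pseudouridine synthase, was the reverse, with 20.2 in the TNBS pool and 187 in later saline and 113.5 and 151 on the week 6 arrays, at least 3.74-fold lower. Of the 14 genes, 9 were at the floor in later saline and 5 in the TNBS pool. Chrne and Gabbr1, receptor subunits of nerve and muscle, were at least 2.26-fold and 2.19-fold higher than later saline, yet both lay below the week 6 saline pool.

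Genes close to the 2-fold threshold lay on both sides of it. Just inside the threshold lay Yipf4, a Golgi protein, at a log2 difference of 1.02, and Stip1, at -1.02. Just outside lay Plin2, at 0.99, and Wwtr1 (TAZ), a factor of the Hippo pathway, at -0.99.

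The genes that stood out at week 10 had different courses over the 4 TNBS pools. Weeks 8, 10 and 12 were compared with the same later saline pool, so these comparisons share a control, and week 6 was compared with the week 6 saline pool. Reg3b read 2095, 4017, 4589 and 201 in the TNBS pools of weeks 6, 8, 10 and 12, so it was high in the first 3 and lowest in the last. Mcpt1 read 1712, 955, 310.2 and 27.0 and Mcpt2 1292, 575, 302 and 21.4, each lower in every later pool. Ubd read 308, 54.0, 260.1 and 54.9, with the week 6 and week 10 pools high and the other 2 at the level of saline. Iigp1 read 386, 219, 336 and 89.4 in the same order.

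Genes low at week 10 had courses of their own. Ccnd2 read 143, 78.5, 61.3 and 209.6 in the TNBS pools of weeks 6, 8, 10 and 12, and Ehf read 200, 196, 103 and 326. For both genes week 10 was the lowest of the 4 TNBS pools and week 12 the highest. Adk differed from its saline pool by -0.57, -1.22, -1.17 and -0.78 on the log2 scale at weeks 6, 8, 10 and 12. Krt32 differed by -0.17, -0.64, -1.18 and -1.24, so both were below the saline pool used at each time. For Adk the shared later saline pool was high, at 1313 against 738.5 and 807 on the week 6 saline arrays. Its TNBS pools read 519, 564, 582 and 766, so the week 12 value lay between the week 6 saline arrays. Hspa5 differed by -0.04, 0.93, -0.70 and -0.48 on the log2 scale at weeks 6, 8, 10 and 12. Vps54 read 251.5, 501, 1045 and 628, with its highest value at week 10. Pancreatic genes, which were high in the TNBS pools of weeks 6 and 8 with list medians of 1.57 and 2.17, had a median of -0.07 at week 10.

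**Figure D5:**
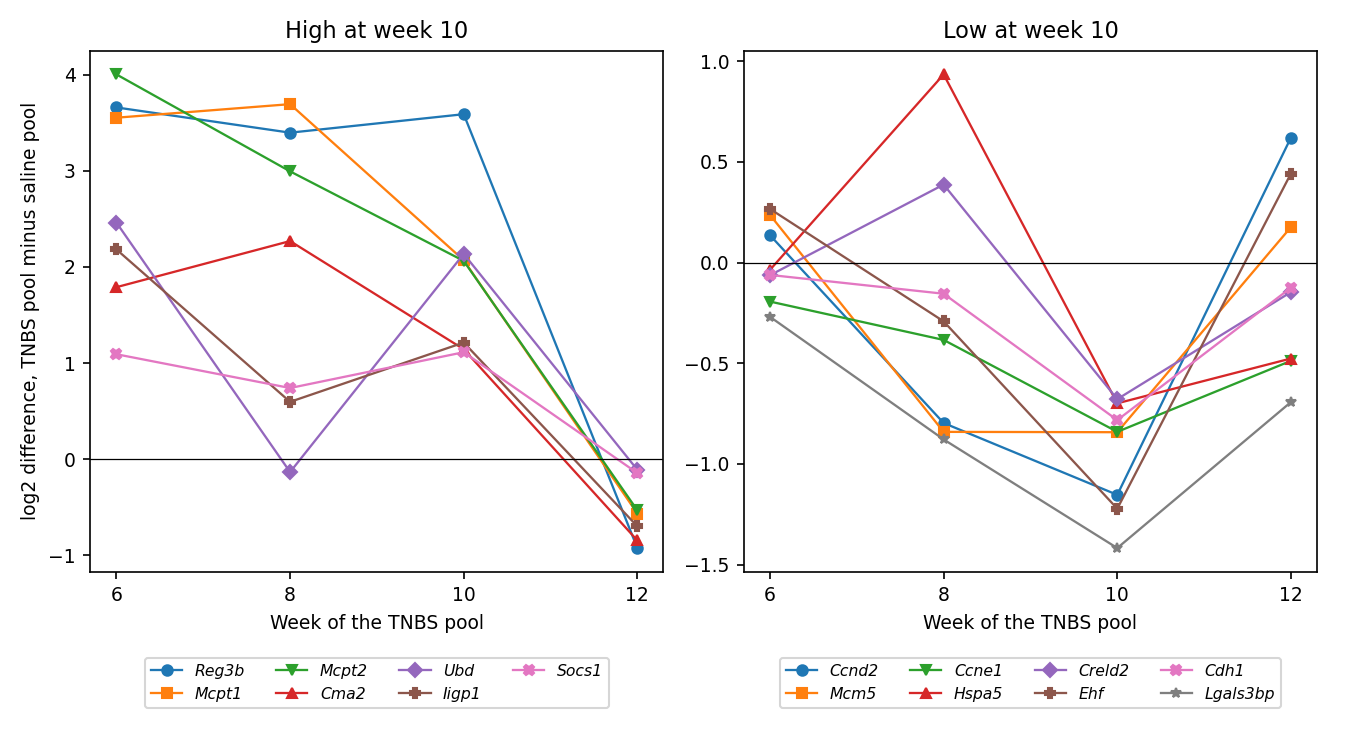
Log2 difference between each TNBS pool and its saline pool at weeks 6, 8, 10 and 12, for 7 genes high at week 10 (left) and 8 genes low at week 10 (right); week 6 uses the week 6 saline pool and the other weeks share the later saline pool, with 1 pool a point. Reg3b stays between 3.40 and 3.66 through week 10 and is -0.92 at week 12, and Ubd is 2.46 and 2.14 at weeks 6 and 10 but -0.13 at week 8.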

How the data were processed

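Signal intensities, 1 per probe set, were made by the authors with Affymetrix Microarray Suite 5.0 and scaled to a target of 150, per the labels. Each array was hybridised with 10 µg of pooled total RNA, taken with TRIzol from colon about 4 cm above the anus. The build used by the authors is not given in the sources used here. Of 12488 probe sets, 66 controls were left out, and 10833 with 1 symbol in the platform annotation were used. Symbols were updated by Entrez identifier (10817 matched) from RefSeq GRCm38.p6, which also gave the promoters. Of 15 genes looked up, 14 gave a window, and windows of single genes on chromosome 18, where Iigp1 lies, were left out. Where a gene had several probe sets, the one of highest mean log2 signal was used. The 2 week 6 saline arrays were averaged on the log2 scale. Analysis used Python 3.11.15, pandas 2.3.3 and numpy 2.4.6, and the counting was tested on simulated data. With 1 pool a side there was no test. The precision is limited by the number of arrays, and depth does not apply.

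Named genes were the 20 with the largest 2-fold differences each way above the floor, the 10 largest bounds each way, up to 4 extreme and 3 bright members of each list, the cell type markers, and other probe sets of these genes. Rik, Gm, EST and LOC symbols were left out. Genes outside this rule, such as Reg1, Irf1, Stip1, Psmb9, Yipf4, Wwtr1, Ctnnb1 and the smaller members of the lists, were chosen after their values were seen. The members, the 50 gene lists and the comparisons were chosen with earlier results of these data known. Alternatives tried were floors of 25 and 100, log2(signal + 50), equal array medians, quantile normalization, the mean of probe sets, other filters, other folds and the week 6 saline pool as control, and, added after the data were seen, the mean of both saline pools.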

Additional observations from a re-analysis of the deposited data

Results flagged for a closer look

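For 4 genes and 1 list the week 10 difference and the week 6 difference had opposite signs, each against its own saline pool. Whether the differences differ was not tested, since each rests on 1 pool a side. On the log2 scale Frat2 stood at 1.14 in week 10 and -1.41 in week 6, and Ocln at 1.49 and -0.62. Sgip1, an endocytic adaptor, was -1.04 at week 10 and 2.01 at week 6, with a signal of 59.5 in the week 10 TNBS pool and 122.5 in later saline. Timp1 was -1.44, a bound, at week 10 and 1.75 at week 6. The cell cycle median was -0.24 at week 10 and 0.29 at week 6.

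Probe sets with no gene symbol were not used in the comparisons, and 2 that were above the floor in both pools were at least 2-fold higher in the TNBS pool. The first of them read 454 in the TNBS pool and 123.5 in later saline, a log2 difference of 1.88. The second read 214 in the TNBS pool and 97.4 in later saline, a log2 difference of 1.13. Of 329 measured probe sets with no symbol, 4 were at least 2-fold higher and 11 lower, bounds included. The lowest of the 11 read 132 in the TNBS pool and 456 in later saline, a log2 difference of -1.79, and the next 59.0 and 186.0, a log2 difference of -1.66. Of 227 with several symbols, 6 were higher and 1 lower.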

How the results depend on the processing

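The count of genes at least 2-fold higher at week 10, 36 as reported, was 22 with a floor of 100, 15 under log2(signal + 50), 65 with equal array medians and 77 against the week 6 saline pool. It was 211 at 1.5-fold and 6 at 3-fold. The count of genes at least 2-fold lower, 28 as reported, was 8 with a floor of 100, 7 under log2(signal + 50), 17 with equal array medians, 17 with the mean of probe sets, 18 for genes with a mean signal of at least 100 and 68 against the week 6 saline pool. It was 271 at 1.5-fold and 1 at 3-fold. Equal array medians moved the median of all genes up by 0.13 and turned the split of higher to lower genes to 65 and 17. Between the saline pools the count of higher genes, 37 as reported, was 19 with a floor of 100, 18 under log2(signal + 50) and 42 with equal array medians. The count of lower genes, 41 as reported, was 18, 17 and, for genes with a mean signal of at least 100, 24. With 1 of the week 6 saline arrays left out these counts ran from 49 to 55 higher and from 44 to 57 lower. The cause of these shifts was not tested, except that other folds and filters count other genes by construction.

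Of the 36 genes called higher, 8 stayed past 2-fold under all 6 settings of floor, scaling and probe set: Reg3b, Ubd, Mcpt1, Mcpt2, Ocln, Sinhcaf, Vps54 and Lclat1. Of these, 7 were also 2-fold higher against the week 6 saline pool, all but Ocln. Of the 28 called lower, 1 stayed under all 6 settings, Lgals3bp, and it was not 2-fold lower against the week 6 saline pool. Against that pool the complement median turned to -0.17, and Chrne (-0.077), Gabbr1 (-0.06), Igkv1-133 (-0.18), Xist (0.29) and Sgip1 (0.091) changed sign. Against it the medians were also 0.25 for mast cell genes, 0.82 for interferon gamma targets, 0.58 for the type I interferon response, -0.52 for immunoglobulin segments, -0.26 for growth factors, -0.51 for enteric neuron and glia and 0.36 for fatty acid oxidation. With the mean of both saline pools they were 0.32 for mast cell genes, 0.31 for the type I response and -0.25 for immunoglobulin segments. With no filter the mast cell median was 0.00 over 15 genes, most of them at the floor, and for genes with a mean signal of at least 100 it was 1.60 over 4 genes, and the neutrophil median -0.30 over 4 genes. The other 446 values of the 46 list medians moved by less than 0.29, the SD over single genes between the repeated arrays. Most list medians were themselves smaller than 0.29, so a median could change sign within this limit, and it does not show that they held. The drug and xenobiotic metabolism median, for example, went from -0.16 to 0.02 against the week 6 saline pool. No paired analysis was possible because each group was 1 pool and only the week 6 saline pool had a second array. Signals near the floor limit what can be seen: under a floor of 100, 22 of the 36 and 8 of the 28 calls remained.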

Other observations

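Rpl41, a ribosomal protein gene, read 2162 in the week 10 TNBS pool and 1109 in later saline, but 11414 and 9879 on the week 6 saline arrays. Its difference between the saline pools, -3.26 on the log2 scale, was the largest downward one in that comparison. The 23 measured ribosomal protein genes had a median of -0.05 at week 10, so Rpl41 did not follow its group.

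The 71 measured solute carrier genes held 0 calls at week 10, with a median of 0.06. Slc26a2, a sulphate transporter of the colon, read 137 in the TNBS pool, against 235 in later saline and 251 and 153 on the week 6 arrays. Slc4a2, an anion exchanger, read 659.5 in the TNBS pool and 376.0 in later saline, and 581 and 373 on the week 6 arrays. Of the 8 measured genes of enteric neurons and glia, 6 lay below later saline, with a median of -0.14. Tubb3, a neuronal tubulin, read 236.0 in the TNBS pool, 396.5 in later saline and 376 and 446 on the week 6 arrays, and Sox10, a factor of glia, read 72.6, 106 and 127 and 131. Both were below every saline array, by less than 2-fold.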
